A study of Mus musculus with 15 samples.

Results

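The comparison described here set the transcriptome of NIH3T3 cells collected 135 min after removal of Shield-1 (S1) against that of the same cells collected 45 min after removal. It took all samples labelled with these times, 3 at 135 min and 3 at 45 min, which made 6 of the 15 samples of the series. The other samples were 5 controls at time 0 and 4 samples at 405 min, which entered neither the fit nor the choice of genes and are given only as levels beside the result. All samples were NIH3T3, a mouse embryonic fibroblast line, stably expressing DD-sfGFP, a fusion of superfolder GFP to a destabilizing domain (DD) made from a mutant FKBP12. S1 is a ligand that holds the DD in its folded state. The ligand was taken away by adding purified FKBP(F36V) protein, which binds it, so the samples at both times carried the transgene and the added protein and differed in the time elapsed. Controls were labelled as unstressed. The cells were a transfected population sorted for high GFP by FACS and so are 1 line, and no label says that replicates came from separate cultures. The p-values therefore measure the spread between these samples, which may be technical.

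Cells answer misfolded or excess ubiquitylated protein with several transcription programmes. Heat shock factor HSF1 drives cytosolic chaperones, NRF2 drives glutathione synthesis and other antioxidant enzymes, and p53 drives both its own negative regulator and a set of growth arrest and death genes. In growing fibroblasts, signalling through MAP kinase, TGF-beta, BMP and YAP keeps a separate group of short-lived transcripts at high levels. Taking 45 min as the reference asks what the RNA did in the interval between the earliest and the middle collection, with everything that the samples at both times shared held equal.

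The 6 libraries held between 9479272 and 30258404 counts over 20207 genes. At these depths the sampling error of a count of 10 is 31.6% of its value, and that of a count of 1000 is 3.16%. The summed level of 8 fibroblast markers, which included Col1a1, Col1a2 and Vim, lay between 16440 and 17363 counts per 1000000 (CPM) at 45 min and between 16229 and 18000 at 135 min. Summed markers of epithelial, endothelial, leukocyte, neuronal and muscle cells stayed at or under 3.80 CPM in each of the 6 libraries, and those of adipocytes reached 7.02 CPM with Adipoq and Cfd at 0. The library of 45 min replicate 3 stood apart from the other 5. Its log2 CPM rose with the GC content of the exons by 0.49 per 10 percentage points relative to the mean of all samples, against slopes from -0.23 to 0.03 in the other 5. Chi-square per degree of freedom between its counts and those of the other 45 min replicates was 113 and 106, against 19.8 between those other replicates and 9.97 to 15.5 among the 135 min replicates. The part this GC dependence plays in any single gene was not tested, and the results below are given with and without that library.

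Of 12322 genes with at least 1 count in each of the 6 samples, 32 were higher and 32 were lower at 135 min (edgeR quasi-likelihood test, Benjamini-Hochberg adjusted p under 0.05). That is 0.26% of the tested genes in each direction. The differences were large where they passed: 26 of the 32 in each direction were at least 2-fold, and log2 fold changes ran from 0.71 to 3.12 upward and from -0.84 to -3.12 downward. Each of the 64 genes had its 3 later samples on the same side of its 3 earlier ones, a separation that 10.5% of all tested genes showed upward and 9.2% downward. For the genes with the largest changes in each direction, up to 10, this separation was also a condition of being named. The median log2 fold change over all tested genes was -0.02. Without 45 min replicate 3 the test called 218 genes higher (1.72% of 12703 tested) and 185 lower (1.46%), and these held all 64 genes of the first count. Without 45 min replicate 2 the counts were 46 higher and 86 lower, with 63 of the 64 calls kept. Leaving out 45 min replicate 1 kept 9 of the 64 calls, and leaving out a 135 min sample kept 4 or 5. None of the 64 changed sign in any of the 15 alternative settings. Because these settings reuse the same libraries and the 64 genes were separated in them, a kept sign says little. Ccl2, Hmox1 and Mdm2 were called in all 15, Cebpd in 14 and Osr1 in 13.

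**Figure D1:**
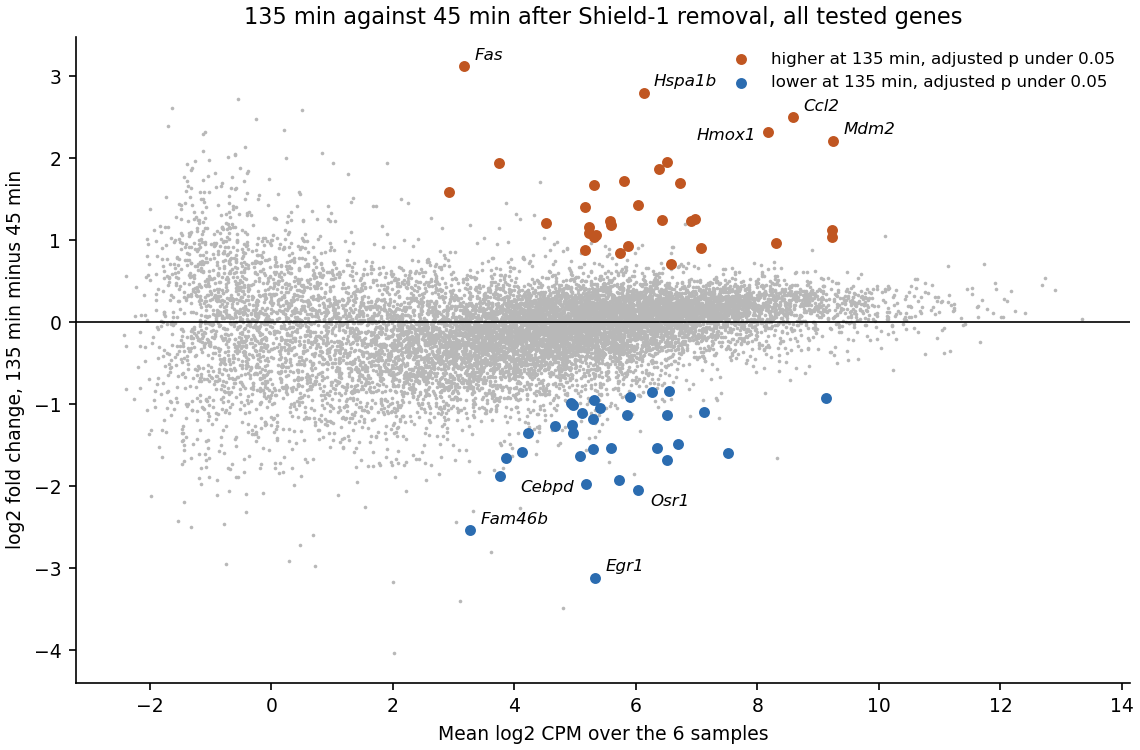
Each point is 1 of the 12322 tested genes, with its mean log2 CPM over the 6 samples on the x axis and its log2 fold change, 135 min minus 45 min, on the y axis. The 32 genes called higher (orange) and the 32 called lower (blue) include Fas at 3.12 and Egr1 at -3.12, the called genes farthest from 0, while grey points are genes that were not called.

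**Figure D2:**
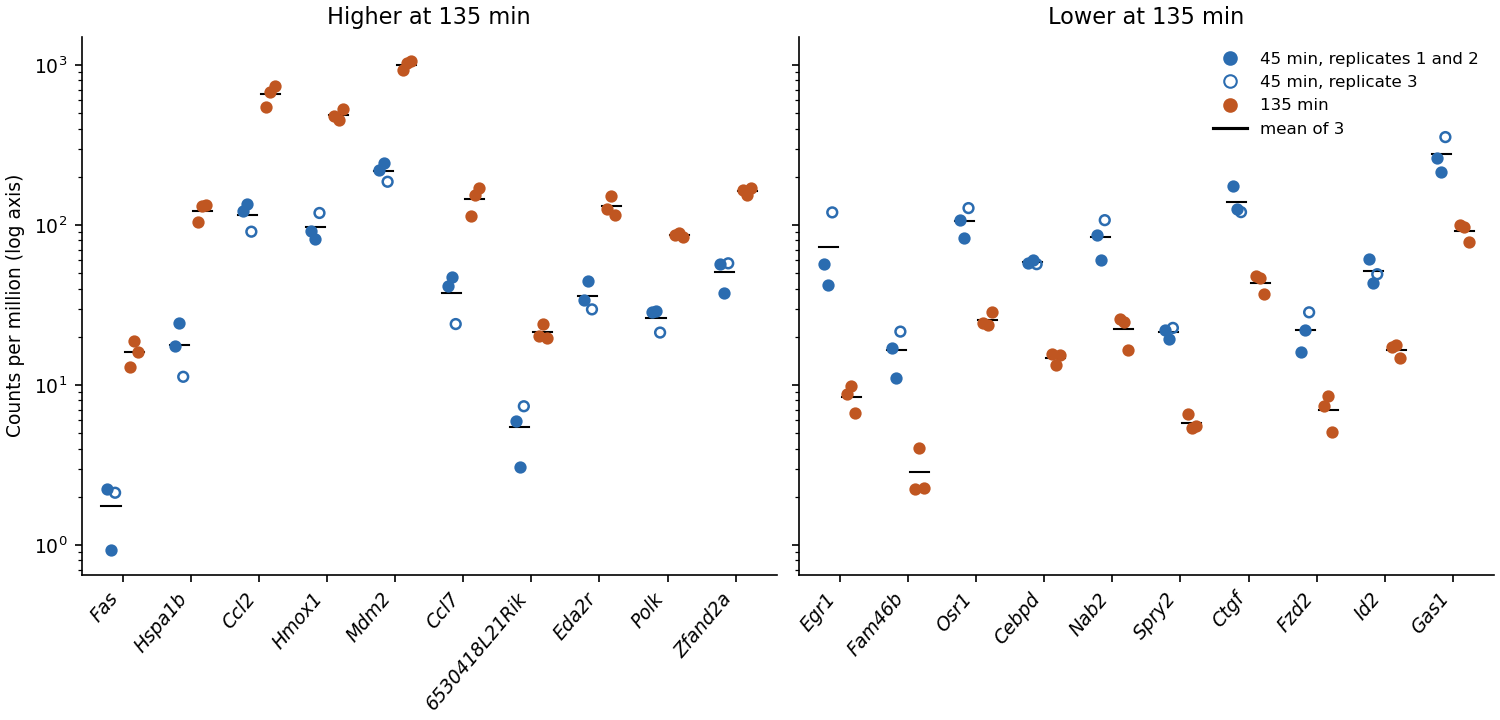
CPM on a log axis for the 10 genes with the largest rise (left) and the 10 with the largest fall (right), 1 point per sample, with a line at the mean of the 3 samples of each time. Open circles mark 45 min replicate 3. The 20 genes were chosen among called genes whose 45 min (blue) and 135 min (orange) samples do not overlap, so that separation follows from the choice.

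Targets of p53 were called higher in 3 lists. For these and all later lists, the share called over all tested genes was 0.26% in each direction. Without 45 min replicate 3 it was 1.72% higher and 1.46% lower. Members and lists were chosen with earlier results of these data known, so the list counts and medians are descriptions. In the list of feedback and growth arrest genes, 4 of 13 tested members were higher and none lower, with a median log2 fold change of 0.69. In the apoptosis list 4 of 10 tested members were higher and none lower, with a median of 0.88, and in the repair and metabolism list 1 of 11 was higher, with a median of 0.15. The counts without 45 min replicate 3 were 7, 6 and 3 higher and again none lower. In bulk RNA a change in the share of cells that express a gene and a change in RNA per cell cannot be told apart.

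Mdm2, the ubiquitin ligase that degrades p53 and is itself a p53 target, lies at chr10:117125961-117147772 of mm9. It was at 219, 244 and 186 CPM in the 3 samples at 45 min and at 929.9, 1028 and 1055 CPM at 135 min. The groups were far apart and each was tight. The rise was 4.64-fold (log2 fold change 2.21 ± 0.16, where the error is the SE as throughout, edgeR adjusted p = 0.0015). Ccng1, the p53 target cyclin G1, stood at 379, 453 and 353 CPM and then at 774, 889 and 769 CPM, so that every sample at 135 min was above every sample at 45 min (log2 fold change 1.04 ± 0.16, edgeR adjusted p = 0.03). Gadd45a, a growth arrest gene induced by DNA damage, read 23.04, 27.1 and 19.7 CPM at 45 min and 52.1, 52.4 and 50.8 CPM at 135 min (log2 fold change 1.16 ± 0.17, edgeR adjusted p = 0.024). Its 135 min samples were nearly equal to each other. Trp53inp1, a p53-induced nuclear protein, went from 19.2 ± 6.63 to 60.8 ± 10.5 CPM (SD, n = 3; edgeR adjusted p = 0.042).

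Of the apoptosis genes, Fas, the death receptor, made the largest rise among all called genes. It was nearly silent at 45 min, at 2.24, 0.925 and 2.12 CPM, and at 135 min it read 12.95, 18.8 and 16.1 CPM (log2 fold change 3.12 ± 0.34, edgeR adjusted p = 0.0056). Its counts in the 45 min libraries were 67, 9 and 36. Eda2r, a receptor of the tumour necrosis factor family, was at 33.7, 44.6 and 29.7 CPM and then at 125, 153 and 115 CPM, with no overlap (log2 fold change 1.87 ± 0.20, edgeR adjusted p = 0.0056). Tnfrsf10b, the mouse TRAIL receptor, rose from 71.8 ± 20.3 to 169 ± 8.35 CPM and Apaf1, the scaffold of the apoptosome, from 29.8 ± 3.87 to 67.4 ± 4.01 CPM (SD, n = 3; edgeR adjusted p = 0.045 and 0.012). The mitochondrial effector Bax did not pass, with a log2 fold change of 0.10 (edgeR adjusted p = 0.78), and neither did Bbc3 at 0.50 (edgeR adjusted p = 0.58). The called members of this list are receptors and the apoptosome scaffold. Pmaip1 did not pass at 1.804 (edgeR adjusted p = 0.197), although its samples did not overlap. Its mean was 1.01 CPM at 45 min and 3.56 CPM at 135 min. Aen and Ei24 passed without 45 min replicate 3, at 0.551 and 0.748 (edgeR adjusted p = 0.005 and 0.0033). Pmaip1, Aen and Ei24 were named after their values were seen. A difference between receptors and mitochondrial members was not tested. The called repair gene was Polk, a translesion DNA polymerase, at 28.4, 29.1 and 21.2 CPM and then 86.7, 88.5 and 83.5 CPM, with its later samples close together (log2 fold change 1.72 ± 0.17, edgeR adjusted p = 0.0046).

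Cdkn1a, the gene of the CDK inhibitor p21, did not pass in the 6 samples. It was at 59.7, 46.1 and 97.2 CPM at 45 min and at 124, 126 and 131 CPM at 135 min. The groups did not overlap, and replicate 3 was the highest of the 45 min samples. The log2 fold change was 0.91 ± 0.24 (edgeR adjusted p = 0.21), and without that replicate 1.24 (edgeR adjusted p = 9.4e-07). The control mean was 25.7 ± 5.89 CPM (SD, n = 5), and all samples at 45 min lay above the control samples.

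The 250 bases before the annotated start were searched for 6 motifs on both strands in the RefSeq promoters (build GRCm38.p6, a later build than the mm9 of the counts). A promoter was matched for 42 of the 64 called genes and 9731 of the 12322 tested genes. Called genes without a match included Hmox1, Ccl2, Trp53inp1, Tnfrsf10b, Egr1, Ctgf, Cebpd and Myc, so the shares below leave them out. The p53 decamer, the single repeat unit of a p53 site, was held by 7 of the 21 higher genes with a promoter (33.3%), by 0 of the 21 lower genes and by 7.28% of all tested genes with one. The 7 genes were Mdm2, 6530418L21Rik, Polk, Gadd45a, Ccng1, Hsph1 and Zrsr1. The antioxidant response element core TGANNNNGC was in 12 of the 21 higher promoters (57.1%), 6 of the 21 lower ones (28.6%) and 41.5% of all, and the heat shock element pair GAANNTTC in 2, 1 and 6.07%. The AP-1 motif TGANTCA was in 1 higher and 0 lower promoters (5.48% of all), the CRE motif TGACGTCA in 1 and 1 (3.07% of all), and the CArG box in 0 and 1 (1.45% of all). In Polk the match to the p53 decamer and that to the antioxidant core overlap. These shares describe letters in a window and are not a measure of binding. The promoters of 3 p53 targets, of the chaperone gene Hspa1b and of the glutathione gene Gclm are printed 5′ to 3′. These genes rose, come from the p53, heat shock and NRF2 lists, and each holds the motif of its list. Not all called list members do. Fas, Eda2r and Apaf1 of the p53 lists hold no p53 decamer, and Hsph1 of the heat shock list does not hold GAANNTTC. Only this form of the heat shock element pair was searched. Pairs with the triplets in the opposite order are left out of the shares above and were not looked for in Hsph1. Capitals mark the p53 decamer in Mdm2, the p53 decamer and the antioxidant core in Ccng1 and Gadd45a, the heat shock element pair in Hspa1b and the antioxidant core in Gclm.
Mdm2, chr10:117710759-117711008, minus strand: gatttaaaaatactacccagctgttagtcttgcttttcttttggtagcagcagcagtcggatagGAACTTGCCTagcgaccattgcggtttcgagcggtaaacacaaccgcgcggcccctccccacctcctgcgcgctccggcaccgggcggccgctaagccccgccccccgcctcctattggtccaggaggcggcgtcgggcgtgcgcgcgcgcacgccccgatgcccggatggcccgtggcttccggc
Ccng1, chr11:40755287-40755536, minus strand: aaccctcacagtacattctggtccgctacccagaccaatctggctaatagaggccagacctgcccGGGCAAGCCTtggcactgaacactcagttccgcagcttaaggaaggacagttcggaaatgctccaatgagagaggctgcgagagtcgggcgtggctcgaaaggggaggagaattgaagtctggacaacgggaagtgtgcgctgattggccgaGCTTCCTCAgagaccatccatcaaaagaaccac
Gadd45a, chr6:67037408-67037657, minus strand: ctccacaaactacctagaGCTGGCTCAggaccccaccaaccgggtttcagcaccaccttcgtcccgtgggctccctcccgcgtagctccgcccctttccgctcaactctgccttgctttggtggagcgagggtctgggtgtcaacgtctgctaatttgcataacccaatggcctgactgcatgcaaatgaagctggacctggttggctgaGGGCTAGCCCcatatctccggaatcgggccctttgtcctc
Hspa1b, chr17:34959239-34959488, minus strand: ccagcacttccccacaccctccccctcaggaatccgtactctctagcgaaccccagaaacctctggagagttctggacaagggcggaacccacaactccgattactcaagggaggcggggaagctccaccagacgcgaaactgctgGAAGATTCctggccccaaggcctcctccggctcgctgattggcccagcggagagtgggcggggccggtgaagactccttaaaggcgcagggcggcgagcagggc
Gclm, chr3:122245307-122245556, plus strand: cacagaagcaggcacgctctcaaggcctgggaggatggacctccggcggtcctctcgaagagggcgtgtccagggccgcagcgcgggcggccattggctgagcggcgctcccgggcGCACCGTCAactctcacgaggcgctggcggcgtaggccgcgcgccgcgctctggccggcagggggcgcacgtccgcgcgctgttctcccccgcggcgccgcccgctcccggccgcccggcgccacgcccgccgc

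Chaperone genes rose in part. Of 20 tested heat shock genes 2 were called higher and none lower, and the median was 0.52. A positive log2 fold change was seen in 19, against 5899 of all 12322 tested genes. In 18 every sample at 135 min lay above those at 45 min, against 10.5% of all tested genes. The fit without 45 min replicate 3 called 14 of the 20 higher and none lower, with a median of 0.49, against 1.72% called higher over all genes. Hspa1b, an inducible HSP70 gene at chr17:35093374-35096183 of mm9, was at 17.5, 24.4 and 11.2 CPM at 45 min and at 104, 130.5 and 134 CPM at 135 min, a 6.97-fold rise (log2 fold change 2.80 ± 0.27, edgeR adjusted p = 0.0046). Every sample at 135 min was several-fold above every sample at 45 min. Its near-identical neighbour Hspa1a had no count in 1 of the 45 min libraries and was not tested, and how shared reads were divided between the copies is not given in the sources used here, so the level of Hspa1b alone is uncertain. Hsph1, an HSP110 that releases nucleotide from HSP70, stood at 407, 369.9 and 362 CPM and then at 774, 842 and 865 CPM (log2 fold change 1.13 ± 0.14, edgeR adjusted p = 0.0077). Dnajb1, the inducible HSP40, was at 29.8, 27.7 and 33.2 CPM at 45 min and 43.97, 44.1 and 45.3 CPM at 135 min, separated but not past the threshold (log2 fold change 0.56 ± 0.14, edgeR adjusted p = 0.21). It passed without 45 min replicate 3 at 0.61 (edgeR adjusted p = 0.015), as did the genes Hspa8, Hsp90aa1, Dnaja1 and Bag3, named after their values were seen, with log2 fold changes of 0.70, 0.55, 0.72 and 1.04. The mitochondrial chaperonin genes Hspd1 and Hspe1 were at 0.28 and 0.13 in that fit and did not pass (edgeR adjusted p = 0.13 and 0.63).

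Among 19 genes of ubiquitin and its binding factors, 2 were higher and none lower, with a median of 0.34, and 7 were higher without 45 min replicate 3. Zfand2a, an arsenite-inducible zinc finger protein tied to the proteasome, was at 56.7, 37.5 and 57.5 CPM and then at 166, 153 and 170.4 CPM (log2 fold change 1.69 ± 0.18, edgeR adjusted p = 0.0056). Replicate 2 was the lowest at both times and the groups were far apart. Ubb, a ubiquitin gene, was at 206, 149 and 245 CPM and 220.4, 229 and 224 CPM. Its groups overlapped (log2 fold change 0.17 ± 0.17, edgeR adjusted p = 0.68).

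None of the 34 proteasome subunits passed in either direction with the 6 samples. Their median log2 fold change was 0.35, 29 were positive and the range was -0.34 to 0.72. Over all 12322 tested genes 5899 were positive. The 2 largest belonged to the regulatory particle, Psmd11 at 0.72 ± 0.15 and the ATPase Psmc2 at 0.66 ± 0.18 (edgeR adjusted p = 0.095 and 0.22). Both passed without 45 min replicate 3, where the list gave 5 higher and 0 lower with a median of 0.22. Psmb3, a subunit of the core particle, stood at 126, 83.9 and 120.1 CPM and 137, 147 and 146 CPM, with replicate 2 low at 45 min (log2 fold change 0.38 ± 0.16, edgeR adjusted p = 0.43), and it did not pass without replicate 3 either (edgeR adjusted p = 0.091).

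In the NRF2 antioxidant list 3 of 25 tested genes were higher and none lower, with a median of 0.34. With 45 min replicate 3 left out, 14 were higher and none lower and the median was 0.51. Hmox1, heme oxygenase 1, was at 91.1, 82.2 and 119 CPM at 45 min and at 477, 454 and 529 CPM at 135 min, a 5.01-fold rise (log2 fold change 2.33 ± 0.17, edgeR adjusted p = 0.0015). Replicate 3 was the highest at each time, and the groups were nowhere near each other. The subunits of glutamate-cysteine ligase, which catalyses the first step of glutathione synthesis, rose together. Gclm, its modifier subunit, went from 84.3, 69 and 70.3 CPM to 163, 195 and 177 CPM (log2 fold change 1.26 ± 0.14, edgeR adjusted p = 0.0056). Gclc, its catalytic subunit, went from 39.1, 34.2 and 48.01 CPM to 77.8, 80.2 and 73.8 CPM (log2 fold change 0.94 ± 0.15, edgeR adjusted p = 0.042). Other members did not pass with the 6 samples. Nqo1, a classic NRF2 target, had a log2 fold change of 0.06 (edgeR adjusted p = 0.93) and 0.34 without 45 min replicate 3 (edgeR adjusted p = 0.4). The cystine transporter Slc7a11 was at 1.71 (edgeR adjusted p = 0.063) with the 6 samples and at 1.98 (edgeR adjusted p = 2.7e-05) with 5. Nqo1 and Slc7a11 were named after their values were seen.

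Stress programmes of the endoplasmic reticulum and of amino acid supply had no called member among the 6 samples. The unfolded protein response list had 0 of 19 called and a median of 0.13, and the integrated stress response list 0 of 18 and a median of -0.06. Hspa5, the chaperone BiP, was at 351, 403 and 423 CPM and 582, 629.9 and 602 CPM, which did not overlap (log2 fold change 0.63 ± 0.14, edgeR adjusted p = 0.13), and it passed without 45 min replicate 3 at 0.67 (edgeR adjusted p = 0.00026). In that fit the first list held 3 higher genes and the second 1. Ddit3, the transcription factor CHOP, which belongs to both lists, was at 36.02, 27.5 and 62.2 CPM at 45 min and 21.4, 22.3 and 26.7 CPM at 135 min. Replicate 3 was far above the other samples at 45 min, and the difference did not pass with it (log2 fold change -0.83 ± 0.28, edgeR adjusted p = 0.34) or without it (-0.45, edgeR adjusted p = 0.2). The members with the largest values were Syvn1 at -1.01 ± 0.46, Dnajb9 at 0.95 ± 0.33 and Trib3 at -1.39 ± 0.76 (edgeR adjusted p = 0.45, 0.36 and 0.5). Without 45 min replicate 3 Dnajb9 passed at 0.61 (edgeR adjusted p = 0.009), whereas Syvn1 was at -0.23 and Trib3 at 0.03 (edgeR adjusted p = 0.81 and 0.99).

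From the NF-kB list a pair of chemokines and an inhibitor rose. Of 19 tested genes 3 were higher and none lower, and the median of the list was 0.01. Ccl2, the monocyte attractant MCP-1, at chr11:81849079-81850954 of mm9, was at 123, 135 and 90.7 CPM and then at 546, 681 and 738 CPM (log2 fold change 2.50 ± 0.20, edgeR adjusted p = 0.0017). Its neighbour Ccl7, a related chemokine at chr11:81859214-81861023, was at 41.4, 47.4 and 24.01 CPM and then at 114, 154 and 170.5 CPM (log2 fold change 1.96 ± 0.27, edgeR adjusted p = 0.015). Replicate 3 was the lowest of the 45 min samples for both, and neither gene overlapped between the times. Control samples spread widely for this pair, at 216 ± 135 CPM for Ccl2 and 61.1 ± 32.4 CPM for Ccl7 (SD, n = 5). Nfkbia, the inhibitor IkB-alpha that NF-kB itself induces, was at 30.03, 29.2 and 26.3 CPM at 45 min, under every control sample, and at 66.9, 73.3 and 61.4 CPM at 135 min (log2 fold change 1.24 ± 0.15, edgeR adjusted p = 0.0073). Other NF-kB targets did not pass: Tnfaip3 had a log2 fold change of 0.39 and Ptgs2 one of -0.08 (edgeR adjusted p = 0.54 and 0.81). The list gave 3 higher and 1 lower without 45 min replicate 3.

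Of the 17 hypoxia and glycolysis genes 1 passed, Adm, the vasodilator peptide adrenomedullin. It was at 24.2, 26.6 and 25.3 CPM and then at 43.8, 48.1 and 47.7 CPM, a small rise in which each group was tight (log2 fold change 0.88 ± 0.15, edgeR adjusted p = 0.043). The median of that list was 0.04, and without 45 min replicate 3 it gave 1 higher and 1 lower.

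The other 12 genes called higher belonged to no list and, apart from 6530418L21Rik, are named after their values were seen. 6530418L21Rik, now called Inka2, an inhibitor of a PAK kinase, was at 5.99, 3.08 and 7.35 CPM and then at 20.3, 24.04 and 19.5 CPM (log2 fold change 1.94 ± 0.30, edgeR adjusted p = 0.031). Slc19a2, a thiamine transporter, was at 37.8, 38.05 and 30.7 CPM and then 93.7, 98.2 and 95.1 CPM (log2 fold change 1.43 ± 0.15, edgeR adjusted p = 0.0056). Neither overlapped. 4632434I11Rik, now Ddias, rose by 1.25 on the log2 scale, Mybl1, which encodes the transcription factor A-MYB, by 1.40, and Tet1, a dioxygenase of 5-methylcytosine, by 1.21. The rest were 2010002N04Rik (1.59), Zrsr1 (1.09), Pard6g (1.07), Lpin1 (1.04), Kif1b (0.91), Plod2 (0.85) and Layn (0.71), of which Lpin1 is a phosphatidate phosphatase and Plod2 a lysyl hydroxylase of collagen. Exons of 4 higher genes (Gadd45a, Gclm and Zrsr1 among them) and 5 lower genes (Egr1, Nab2, Ctgf, Sertad4 and Runx2) overlap a gene on the opposite strand in the mm9 annotation. Whether the counting used strand is not given in the sources used here, so the reads of such a pair cannot be told apart.

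Regulators of growth signalling were among the genes that fell. Of 21 tested immediate-early genes 3 were lower and none higher, with a median of -0.69, which was -0.27 without 45 min replicate 3 when 5 were lower and 1 higher. Egr1, a serum-induced zinc finger factor, made the largest fall among all called genes. It was at 56.99, 42.3 and 119.7 CPM at 45 min and at 8.76, 9.82 and 6.65 CPM at 135 min, so that replicate 3 was the highest of the early samples and the late ones were all low (log2 fold change -3.12 ± 0.37, edgeR adjusted p = 0.0077). Without that replicate the log2 fold change was -2.59 (edgeR adjusted p = 2.1e-08). The control samples of Egr1 averaged 54.1 ± 40.7 CPM (SD, n = 5). Nab2, a corepressor of EGR factors outside the list, followed the same direction, from 86.2, 60.2 and 107 CPM to 25.9, 24.6 and 16.5 CPM (log2 fold change -1.92 ± 0.24, edgeR adjusted p = 0.011). Nr4a1, an orphan nuclear receptor, went from 29.9, 21.7 and 27.2 CPM to 9.97, 7.24 and 8.97 CPM, again without overlap (log2 fold change -1.59 ± 0.22, edgeR adjusted p = 0.015).

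Myc, a transcription factor of cell growth that is in the immediate-early list and in that of the MYC network, went from 130.1, 123 and 125 CPM to 51.3, 62.99 and 57.97 CPM (log2 fold change -1.13 ± 0.13, edgeR adjusted p = 0.0069). Its 45 min samples differed little from each other, and those at 135 min were all under them. In the latter list it was the only called member among 10 tested, with and without 45 min replicate 3, and the median of that list was -0.35. Genes of the AP-1 family did not pass with the 6 samples. Fos was near 1 CPM at both times, at 0.602, 1.03 and 0.706 CPM and 0.791, 0.858 and 0.579 CPM (log2 fold change -0.04 ± 0.56, edgeR adjusted p = 0.98), and Jun had a log2 fold change of 0.25 (edgeR adjusted p = 0.46). Fosl2 was at -0.93 (edgeR adjusted p = 0.061) and passed without 45 min replicate 3 at -0.80 (edgeR adjusted p = 0.00028). Junb was at -1.69, Fosl1 at -1.11 and Jund at -0.51 (edgeR adjusted p = 0.24, 0.51 and 0.45). Without 45 min replicate 3 they were at -1.15, 0.01 and -0.27 and did not pass (edgeR adjusted p = 0.068, 0.99 and 0.64). Jun, Fosl2, Junb, Fosl1 and Jund were named after their values were seen.

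Feedback inhibitors of MAP kinase signalling fell in 3 of 16 tested members, none rose, and the median was -0.56 (-0.33 without 45 min replicate 3, when 4 were lower). Spry2, a Sprouty inhibitor of receptor tyrosine kinases, was at 21.9, 19.3 and 22.7 CPM and then at 6.57, 5.37 and 5.5 CPM (log2 fold change -1.87 ± 0.21, edgeR adjusted p = 0.0056). Both groups were tight. Errfi1, an inhibitor of the EGF receptor, was at 66.1, 51.4 and 98.8 CPM and then at 27.6, 25.4 and 21.2 CPM, and Dusp10, a phosphatase of JNK and p38, at 34.6, 28.3 and 46.1 CPM and then 13.6, 15.3 and 16.3 CPM. Replicate 3 was the highest of the 45 min samples for both, and neither overlapped between times (log2 fold changes -1.54 ± 0.24 and -1.26 ± 0.21, edgeR adjusted p = 0.031 and 0.042). The ERK phosphatase Dusp6 had a log2 fold change of -0.23 and did not pass (edgeR adjusted p = 0.64).

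Target genes of TGF-beta and YAP had the lowest median of the 26 lists, a rank among lists chosen with earlier results of these data known. All 12 were tested, all had a negative log2 fold change (6423 of 12322 over all tested genes), and the median was -1.03. Of these 3 were called lower with the 6 samples and 8 without 45 min replicate 3, with a median of -1.09. Ctgf, a matricellular growth factor, was at 175, 125 and 120.2 CPM and then at 47.7, 46.3 and 36.9 CPM (log2 fold change -1.68 ± 0.18, edgeR adjusted p = 0.0056). Its relative Cyr61 was at 139.7, 102 and 125 CPM and then at 45.1, 41.3 and 40.3 CPM (log2 fold change -1.53 ± 0.15, edgeR adjusted p = 0.0046). The late samples of each were close together and under all early ones. Amotl2, an angiomotin that restrains YAP, was at 137, 138 and 186 CPM and then at 57.3, 58.2 and 49.5 CPM (log2 fold change -1.48 ± 0.16, edgeR adjusted p = 0.0056). Ankrd1, a YAP target, did not pass with the 6 samples at -1.04 (edgeR adjusted p = 0.069) and passed without 45 min replicate 3 at -1.24 (edgeR adjusted p = 2e-07), and was named after its values were seen. Thbs1, thrombospondin 1, outside the list and named after its values were seen, was at 769.9, 735 and 704 CPM and then at 401, 401 and 357 CPM (log2 fold change -0.93 ± 0.13, edgeR adjusted p = 0.022).

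Of 12 BMP target genes 1 fell, and the median was -0.51. The fit of 5 samples had 3 lower genes and a median of -0.67. Id2, an inhibitor of basic helix-loop-helix factors, was at 61.04, 43.4 and 49.2 CPM at 45 min, under every control sample, and at 17.3, 17.7 and 14.6 CPM at 135 min (log2 fold change -1.63 ± 0.18, edgeR adjusted p = 0.0056). Its relative Id3 did not pass with the 6 samples at -0.61 (edgeR adjusted p = 0.38) and passed without 45 min replicate 3 at -0.83 (edgeR adjusted p = 0.0014). Id1 passed in neither fit, at 0.01 and -0.11 (edgeR adjusted p = 0.99 and 0.9). The difference between Id genes was not tested. In the Notch list 6 of 12 members were tested and none passed. Hes1, the main Notch effector, was at 5.65, 6.68 and 5.82 CPM and 3.1, 1.93 and 1.88 CPM, which did not overlap (log2 fold change -1.39 ± 0.33, edgeR adjusted p = 0.18), and passed without 45 min replicate 3 at -1.44 (edgeR adjusted p = 0.035). Lfng was the other member with the largest value, at -1.17 ± 0.41 (edgeR adjusted p = 0.36).

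In the C/EBP and Kruppel-like factors, 3 of 15 tested genes fell, none rose, and the median was -0.49, with 4 lower without 45 min replicate 3. Cebpd, a C/EBP factor induced by cytokines and glucocorticoids, was at 57.4, 60.6 and 56.8 CPM and then at 15.6, 13.4 and 15.4 CPM (log2 fold change -1.98 ± 0.15, edgeR adjusted p = 0.0017). Its early samples were close together, replicate 3 included, and lay under all controls. Klf10, a TGF-beta inducible factor, was at 42.5, 48.9 and 44.7 CPM and then at 18.1, 20.2 and 15.1 CPM, and Klf3, a repressor of the same family, at 55.2, 43.4 and 65.4 CPM and then 21.2, 28.1 and 22.8 CPM (log2 fold changes -1.35 ± 0.17 and -1.18 ± 0.19, edgeR adjusted p = 0.011 and 0.038). Among the members that did not pass, Cebpb had a log2 fold change of -0.24 and Klf4 one of -0.37 (edgeR adjusted p = 0.57 and 0.43).

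Besides Nab2 and Thbs1, 17 of the lower genes belonged to no list. Fam46b, a noncanonical poly(A) polymerase now called Tent5b, was at 16.9, 11.1 and 21.5 CPM and then at 2.25, 4.02 and 2.28 CPM (log2 fold change -2.53 ± 0.34, edgeR adjusted p = 0.015). Osr1, an odd-skipped zinc finger factor of mesenchyme, was at 108, 82.7 and 127 CPM and then at 24.4, 23.8 and 28.6 CPM, with the late samples nearly equal (log2 fold change -2.04 ± 0.18, edgeR adjusted p = 0.0032). Fzd2, a Wnt receptor, and Gas1, a Hedgehog coreceptor, had log2 fold changes of -1.66 ± 0.29 and -1.59 ± 0.20 (edgeR adjusted p = 0.048 and 0.0089). The other 13, named after their values were seen, included further transcription regulators: Snai2 (-1.25) and Snai1 (-0.98), repressors of E-cadherin, Nr2f2 (-1.09), an orphan nuclear receptor, Runx2 (-0.95), a factor of bone formation, Ppargc1a (-1.11), a coactivator of mitochondrial genes, and Sertad4 (-1.54). Nr2f2 was among the cleanest, at 196, 183 and 195 CPM and then at 87.6, 95.7 and 85.6 CPM. The remaining genes were the potassium channel Kcna4 (-1.36), the PP2A inhibitor Ensa (-1.13), D4Bwg0951e (-1.04), the pyruvate dehydrogenase phosphatase Ppm2c (-1.01), the sphingosine 1-phosphate receptor S1pr3 (-0.92), Socs5 (-0.85) and Pcdh18 (-0.84).

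Lists of cell cycle, metabolism and structure held no called gene with the 6 samples. These were D cyclins and G1/S (22 tested, median -0.08), G2/M and mitosis (24, -0.17), cholesterol synthesis (17, -0.36), circadian clock (16, -0.43), metallothionein (4, -0.28), ribosome biogenesis (19, 0.20), SRF and actin cytoskeleton (11, -0.04) and Wnt feedback (5, -0.16). With the 5 samples the circadian list had 3 lower genes, cholesterol synthesis and SRF 1 lower each, ribosome biogenesis and Wnt feedback 1 higher each, and the cell cycle and metallothionein lists none. Several of the largest values were smaller without 45 min replicate 3. The mitotic kinase Plk1 was at 44.6, 33.4 and 107 CPM at 45 min and 28.3, 28.9 and 32.04 CPM at 135 min, with replicate 3 farthest above the later samples, and its log2 fold change went from -1.04 to -0.41 without it. Ccnd3 went from -1.08 to -0.38, Cdc25b from -0.79 to -0.40, the sterol regulator Srebf2 from -0.76 to -0.03 and mevalonate kinase, Mvk, from -0.89 to -0.19. Per1 went from -1.34 to -0.71, Rrp9 from -0.51 to 0.04 and Zyx from -0.70 to -0.32. The values in both fits were nearer to each other for Bhlhe40 (-1.34 and -1.02), a clock repressor, Fhl2 (-0.70 and -0.79), Utp20 (0.45 and 0.43), Cdkn1b (-0.56 and -0.46), Mt2 (-0.37 and -0.28), Slc30a1 (-0.40 and -0.36) and Dkk2 (-0.65 and -0.70), and Nkd1 was at 0.74 and 0.47 with under 3 CPM in each sample.

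**Figure D3:**
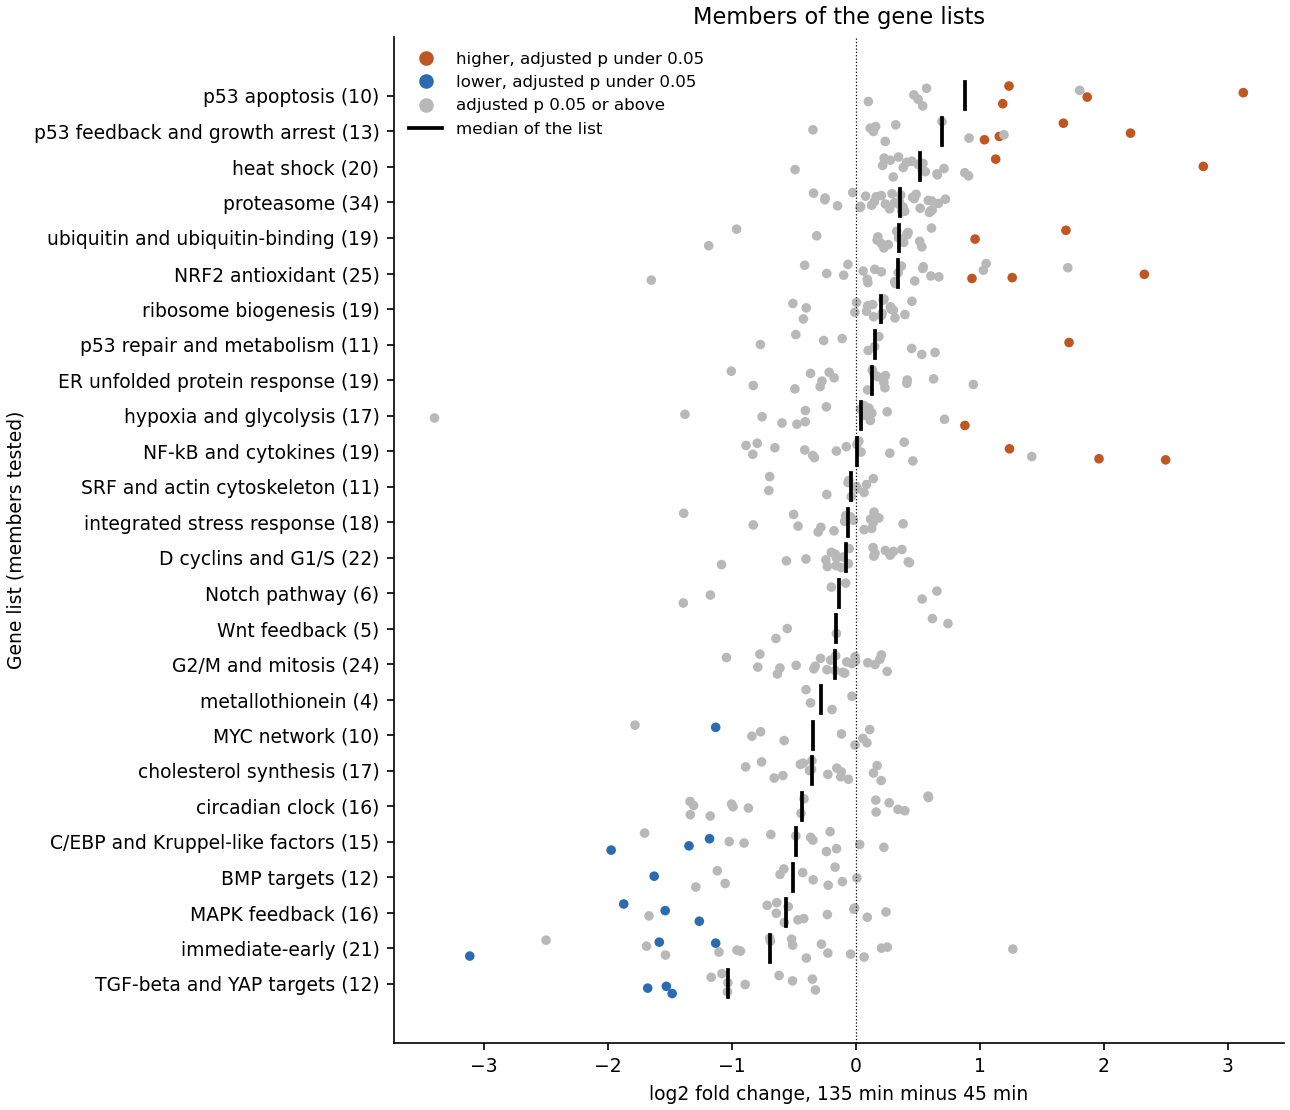
Each point is the log2 fold change (135 min minus 45 min, x axis) of 1 tested member of the 26 gene lists, which are ordered by their median (black bar). Called members are orange where higher and blue where lower, and the medians run from -1.03 for TGF-beta and YAP targets to 0.88 for p53 apoptosis genes. The lists were chosen with earlier results of these data known, so their order is a description.

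**Figure D4:**
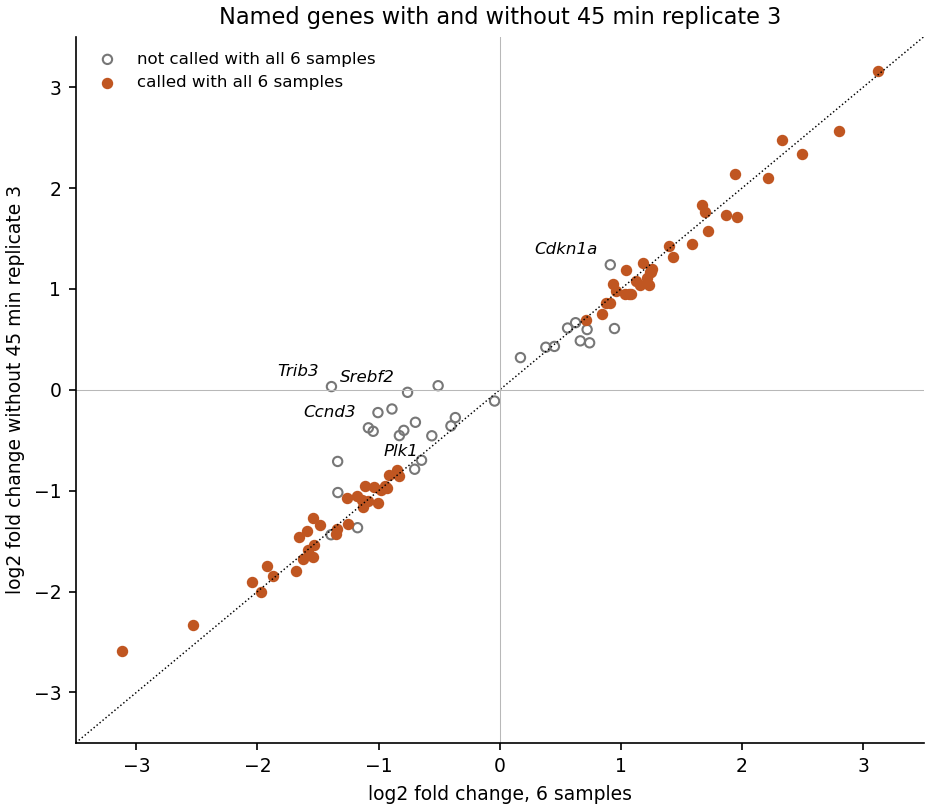
Log2 fold changes of the genes named here from the 6 samples (x axis) and without 45 min replicate 3 (y axis), with a dotted line where both are equal. The 64 called genes (filled) keep their sign, which their separation in the 6 samples made likely in advance. Among those not called Srebf2 moves from -0.76 to -0.03 and Trib3 from -1.39 to 0.03.

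The levels in the control and 405 min samples place these changes in the course of the experiment. They are given without a test because any comparison of 45 min with control or of 405 min with 135 min would share samples with the one made here, and 3 of the 4 libraries at 405 min and 1 of the 5 controls had the same GC dependence as 45 min replicate 3. Mdm2 averaged 162 ± 38.3 CPM in the controls (SD, n = 5), 216 ± 29.1 at 45 min (n = 3), 1004 ± 65.8 at 135 min (n = 3) and 375 ± 53.4 at 405 min (n = 4). Hspa1b was at 31.2 ± 15.5, 17.7 ± 6.57, 123 ± 16.4 and 15.9 ± 9.08 CPM in the same order, and Hmox1 at 56.8 ± 22.4, 97.3 ± 19.1, 486 ± 38.3 and 196 ± 74.02 CPM. These 3 were highest at 135 min. Zfand2a was at 163 ± 8.79 CPM at 135 min and 167 ± 25.2 CPM at 405 min, and Gclm at 178 ± 15.98 CPM and 287 ± 16.9 CPM at the same times. Among the genes that fell, Cebpd was at 122 ± 54.6, 58.3 ± 2.004, 14.8 ± 1.24 and 24.4 ± 3.44 CPM, and Id2 at 102 ± 31.6, 51.2 ± 8.99, 16.6 ± 1.67 and 39.5 ± 3.66 CPM. Spry2 was at 26.7 ± 7.26, 21.3 ± 1.77, 5.81 ± 0.66 and 20.8 ± 5.41 CPM, and Cyr61 at 112 ± 73.5, 122 ± 19.1, 42.2 ± 2.55 and 172 ± 44.8 CPM. The 405 min means of Spry2 and Cyr61 lay within the range of the controls, while those of Cebpd and Id2 lay under it.

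**Figure D5:**
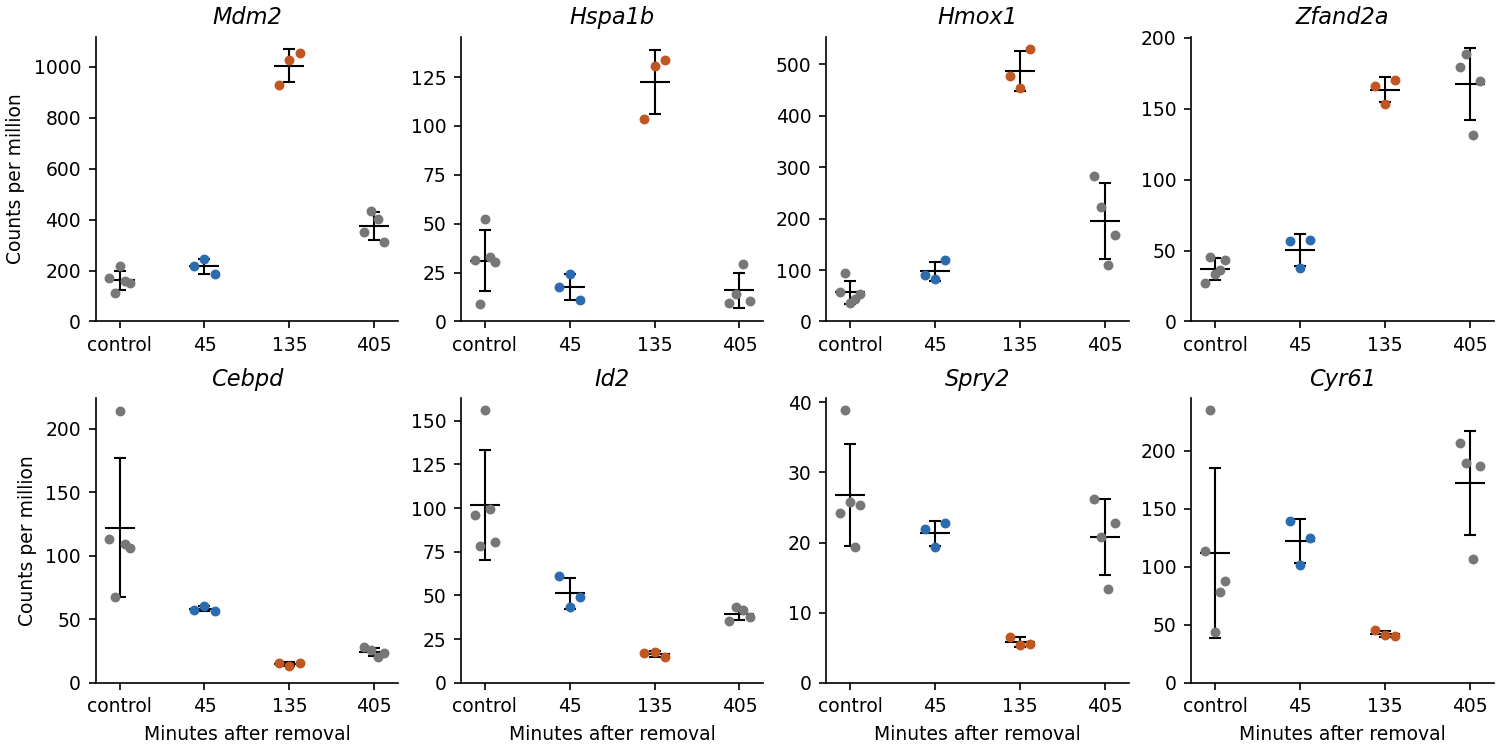
CPM (y axis, from 0) of 8 genes in the control samples and at 45, 135 and 405 min after removal (x axis), 1 point per sample with the mean and SD in black. Mdm2, Hspa1b and Hmox1 are highest at 135 min, Zfand2a averages 163 CPM at 135 min and 167 CPM at 405 min, and Cebpd, Id2, Spry2 and Cyr61 are lowest at 135 min.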

How the data were processed

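RNA of all 15 samples was sequenced on an Illumina instrument. The labels name the NuGEN Encore kit for every library, whereas the study's methods also describe a preparation after an Illumina protocol without saying for which samples. Whether the preparation of 45 min replicate 3 differed is therefore not known. Per the study's methods, the authors aligned reads to mm9 and counted them over RefSeq genes with DNAnexus software; the aligner is not given in the sources used here. The deposited read counts are expected counts, of which 8.71% to 15.6% per sample were not whole, so they were rounded although whole counts had been planned for. The authors also deposited RPKM values, a Z score of it and a ratio that scales it by its root mean square, none of which entered a test.

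Counts of the 6 samples were fitted in edgeR 4.0.16 (R 4.3.3) with TMM factors and a quasi-likelihood test, on genes with at least 1 count in each sample, with Benjamini-Hochberg adjustment over all of them at 0.05. SE is the absolute log2 fold change over the root of the F statistic. CPM use TMM factors of all 15 samples. DESeq2 1.42.0 was an alternative. With 3 samples against 3 an exact permutation test of a single gene cannot go below 0.1.

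Exon GC content came from the mm9 annotation (95.5% of the tested genes). A library was put in a second set where its GC slope, taken relative to the mean of each gene over the samples, passed 0.2. The plan did not say relative, but absolute slopes left 1 set.

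Named genes were up to 10 per direction with the largest fold change among called, nonoverlapping genes of mean count at least 20 in the higher group, up to 4 called members of each of 26 lists (or up to 2 uncalled ones of mean count at least 20), and 18 genes listed by name. Genes named outside this rule, uncalled list members given for contrast included, were named after their values were seen. Members and lists were chosen with earlier results of these data known. Some named genes are not reported here. The fit was tested on simulated data.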

Additional observations from a re-analysis of the deposited data

Results flagged for a closer look

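For 56 of the named genes (those with the largest changes, those listed by name and those called outside the lists), 112 group tests in the control and 405 min samples asked whether 1 sample lies far from the rest of its group, and 6 values did. Chance flags about 1 group in 20. The values are log2 CPM. Control replicate 3, the shallowest control library, was low for Gclm at 4.09, Ddit3 at 3.17 and Psmb3 at 5.24. Gas1 was high in control replicate 5 at 8.94. Among the 405 min samples Fam46b was low in replicate 3 at 3.21, the only 405 min library without the GC dependence of the others, and Ddit3 was high in replicate 4 at 5.23. None of these samples enters the comparison of 135 min with 45 min, where groups of 3 are too small for the same test.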

How the results depend on the processing

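The 32 higher and 32 lower genes became 32 and 31 with RLE size factors and 29 and 32 with filterByExpr. They became 144 and 195 with DESeq2, 50 and 86 with no filter, 62 and 59 with the GC offset and 20 and 22 with the replicate block and the GC offset together. All 15 samples in the fit gave 19 and 25, and 45 and 60 with library set as a term. Leaving out each sample in turn gave 3 to 218 higher and 1 to 185 lower genes, the largest counts without 45 min replicate 3, where the common dispersion was 0.0245 against 0.0659, and the smallest without a 135 min sample or without 45 min replicate 1 (4 and 5). Without 45 min replicate 2 the counts rose to 46 and 86. No call changed sign, which says little because the settings reuse the same libraries. Within library set 1 the fit is the one without 45 min replicate 3. Why leaving out 45 min replicate 1 or a 135 min sample lowered the counts was not tested. With the 6 samples 1385 genes had an unadjusted p under 0.05.

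The replicate block gave 15 higher and 15 lower genes, all among the 64. Same-numbered samples did not deviate together (correlations -0.04, -0.16 and -0.13), so the numbers do not pair the samples.

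Medians of -0.02 over all genes moved by under 0.1 in each setting. Genes under about 10 counts per library are limited by sampling.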
